A study of Populus tremula x Populus alba with 6 samples.

Results

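The ChIP-seq peaks described here were classed as promoter peaks, but their summits lay inside the gene, more than 250 bp past its annotated start. They were selected by position alone: the authors' annotation of the peak began with the promoter class, the summit lay over 250 bp past the start in the direction of transcription, and it lay between the gene's 2 ends. The rule found 4626 of 18975 peaks on the P. alba chromosome set and 4120 of 17040 on the P. tremula set of the same hybrid, or 8746 of 36015 in all. They were assigned to 4207 and 3811 genes, out of 13403 and 12487 genes with any peak. They are called gene-body peaks below, and the chromosome sets are called subgenomes.

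Chromatin came from mesophyll protoplasts, leaf cells without their walls, of a hybrid poplar, labelled Populus tremula x Populus alba. All 6 libraries, 3 made with an anti-Myc antibody and 3 inputs made with none, came from cells that transiently expressed PtrbHLH011-10xMyc, the factor PtrbHLH011 joined to a Myc tag. The factor was thus supplied in addition to the cells' own, and cells without the tagged factor were not analysed here. The data consist of 1 peak table for each subgenome and hold no value for a single library, so that ChIP and input could not be compared and no spread between replicates could be given.

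Transcription factors of the basic helix-loop-helix (bHLH) family bind DNA as dimers, most often at a short palindrome named the E-box. In Arabidopsis, bHLH11 is known as a negative regulator of iron uptake genes. A promoter is the stretch around and before the point where transcription starts, and sites used by plant transcription factors are most often sought there. The authors' promoter class, however, reached 3 kb in both directions from a start, so that in most genes it took in a large part of the transcribed region. Each peak carries 1 annotation only, and the tables therefore do not say whether a gene-body summit lay in an exon, an intron or an untranslated region.

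Gene-body peaks were spread along the promoter range of genes, with window counts in a narrow range from 500 bp past the start onward. The median summit lay 1243 bp past the start on P. alba (quartiles at 665 and 1952 bp) and 1244 bp past it on P. tremula (quartiles at 665 and 1959 bp), and the farthest lay at 3198 bp on both. By the authors' own bands, 1989 P. alba peaks (43.0%) belonged to the class within 1 kb of the start, 1637 (35.4%) to that of 1 to 2 kb and 1000 (21.6%) to that of 2 to 3 kb. On P. tremula the counts were 1787 (43.4%), 1451 (35.2%) and 882 (21.4%). A gene can hold a summit only as far as it is long, so the fall over these bands says nothing of position by itself. Distances refer to the start of the transcript that the authors assigned.

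Genes at least 250 bp longer than the 3 kb reach can hold summits over the whole promoter range, and they contained 2204 P. alba (47.6%) and 1924 P. tremula (46.7%) gene-body peaks. In those genes, the first 250 bp held 476 P. alba and 425 P. tremula summits, and the window from 250 to 500 bp held 235 and 198. From 500 to 3000 bp, the 10 windows of 250 bp each held between 181 and 207 summits on P. alba and between 157 and 182 on P. tremula. The lowest and the highest of these windows thus differed by less than the drop at the edge of the start region. Upstream of the same starts, beyond 250 bp, windows held 73 to 146 summits on P. alba and 73 to 140 on P. tremula. Upstream summits can be assigned to a nearer gene instead, which lowers these counts to an extent not measured here, and the distribution of random positions was not available, so no excess over chance is stated for either side.

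**Figure D1:**
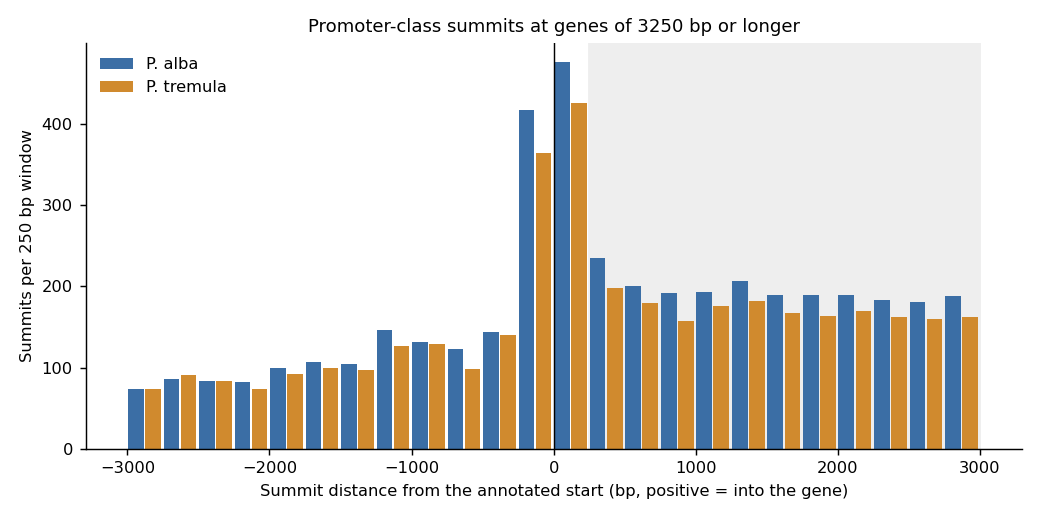
Number of promoter-class summits (y axis) in windows of 250 bp by signed distance from the annotated start (x axis, in bp, positive into the gene), at genes at least 250 bp longer than the 3 kb reach, for each subgenome. The shaded range holds the gene-body peaks, which stayed between 181 and 207 (P. alba) and between 157 and 182 (P. tremula) per window from 500 to 3000 bp, against 476 and 425 in the first 250 bp.

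Most gene-body peaks were shallow. Heights, folds and q values were taken as the authors' peak caller gave them. The height, called pileup, is the number of reads over the summit, and the median was 6 reads on both subgenomes. Fewer than 10 reads stood behind 90.0% of the P. alba and 89.8% of the P. tremula gene-body peaks, beside 78.5% and 77.7% of all peaks and 87.7% and 87.2% of those within 250 bp of the start, and the lowest height in either list was 5 reads. By height, 1013 P. alba peaks had 5 reads, 1713 had 6, 903 had 7, 378 had 8 and 155 had 9. On P. tremula the same heights were found at 829, 1545, 837, 342 and 146 peaks. Their median length was 121 bp on P. alba (quartiles at 94 and 162 bp) and 125 bp on P. tremula (quartiles at 99 and 168 bp), and the median peak covered 4.07% and 4.23% of its gene.

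The median fold, the summit height over the caller's local background with 1 read added to each, was 3.52 on P. alba (quartiles 3.02 and 3.95) and 3.53 on P. tremula (quartiles 3.02 and 3.94). At 67.0% and 64.0% of gene-body peaks the background equalled its lowest value, 0.989 reads (P. alba) and 0.985 reads (P. tremula), within 0.01 reads. At such peaks the fold follows from the height alone, and 9 reads are the fewest that give a fold of 5.

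**Figure D2:**
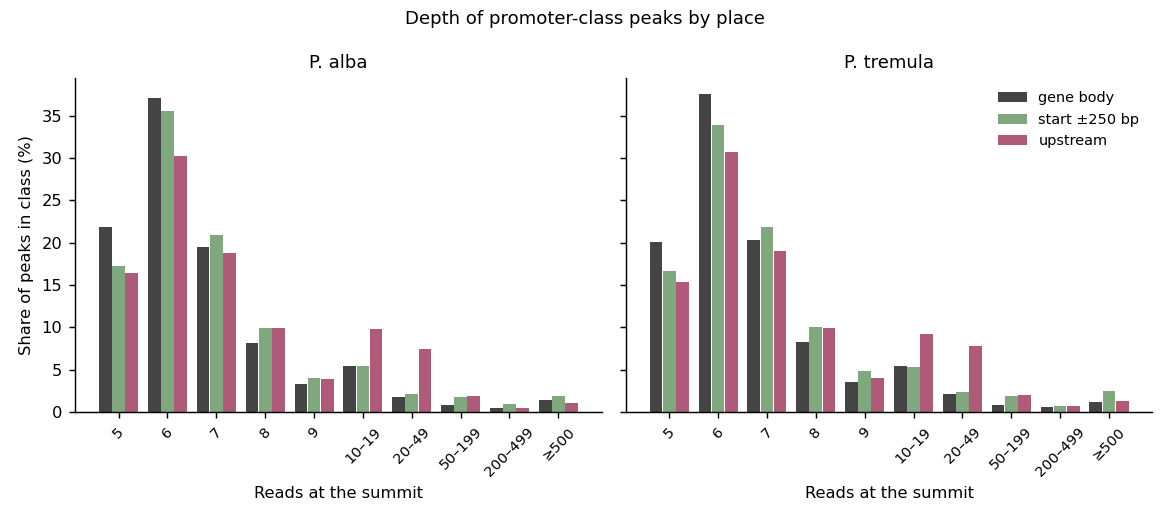
Share of the peaks of each place class (y axis, percent) by the number of reads at the summit (x axis, single heights from 5 to 9 and ranges above), for P. alba (left) and P. tremula (right). Bars show gene-body peaks, promoter-class peaks within 250 bp of the start, and promoter-class peaks farther upstream; heights of 20 to 49 reads were found at 1.79% and 2.09% of gene-body peaks against 7.46% and 7.85% of upstream peaks.

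Strong enrichment was less frequent in gene bodies than in the other promoter-class places. A fold of 5 or more was reached by 171 gene-body peaks on P. alba (3.70%, 95% interval 3.17 to 4.28%) and by 168 on P. tremula (4.08%, 3.49 to 4.73%), where 8.21% and 8.08% of all peaks reached it. Among promoter-class peaks within 250 bp of the start, called start peaks below, the shares were 6.97% of 2237 and 7.101% of 2028. Among those more than 250 bp upstream they were 10.8% of 3417 and 10.2% of 3123. Exon and intron peaks outside the promoter class, which lie farther than 3 kb from an assigned start, had shares of 3.48% of 1784 and 2.97% of 1581. The summit lay inside the assigned gene in only 72.8% and 72.5% of these exon and intron peaks, so they are not all deeper places of that gene. Intervals of shares are exact (Clopper-Pearson) and, like the tests below, cover counting error only, with peaks taken as independent.

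The odds of a fold of 5 or more in gene bodies were 0.512 of those at start peaks on P. alba (95% interval 0.410 to 0.640, adjusted p = 2.10e-08, Fisher's exact test, two-sided, Benjamini-Hochberg over 18 tests) and 0.556 on P. tremula (0.442 to 0.699, adjusted Fisher's exact p = 2.01e-06). Against upstream peaks the odds ratios were 0.317 (0.263 to 0.382, adjusted Fisher's exact p = 9.32e-35) and 0.376 (0.310 to 0.456, adjusted Fisher's exact p = 2.28e-23). The difference was also present, as a description, among peaks at the lowest background alone. There, 2.23% and 2.54% of gene-body peaks had a fold of 5 or more, against 5.12% and 5.78% of start peaks and 5.85% and 5.05% of upstream peaks. It was seen between the place classes of 1 annotation label, which are all called promoter peaks in the tables.

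Gene-body peaks and exon and intron peaks outside the promoter class could not be told apart by this measure. The odds ratio of a fold of 5 or more was 1.07 on P. alba (0.793 to 1.43, adjusted Fisher's exact p = 0.799) and 1.39 on P. tremula (0.999 to 1.93, adjusted Fisher's exact p = 0.0820). The intervals leave room for odds up to 1.43 and 1.93 times as high in gene bodies. With the inner limit set at 100 bp the P. tremula ratio was 1.59 and passed the threshold (adjusted Fisher's exact p = 0.00757). Exon peaks of that comparison class reached a fold of 5 in 2.26% and 1.91%, and intron peaks in 5.26% and 4.52%.

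The q values of the caller gave the same order of the place classes. Like the folds, they depend on the summit height, and no gene-body, start or upstream peak of 5 reads had a q value of 0.05 or less. The tests on q are therefore not separate support for the tests on fold. A q value of 0.05 or less was held by 3116 gene-body peaks on P. alba (67.4%, 66.0 to 68.7%) and by 2776 on P. tremula (67.4%, 65.9 to 68.8%), beside 72.6% and 72.9% of all peaks. Start peaks passed in 73.7% and 72.2%, upstream peaks in 74.7% and 75.9%, and exon and intron peaks outside the class in 64.8% and 65.7%. The odds ratio against start peaks was 0.736 on P. alba (0.658 to 0.823, adjusted Fisher's exact p = 2.02e-07) and 0.796 on P. tremula (0.708 to 0.894, adjusted Fisher's exact p = 0.000220). Against upstream peaks it was 0.697 (0.632 to 0.770, adjusted Fisher's exact p = 2.12e-12) and 0.657 (0.592 to 0.730, adjusted Fisher's exact p = 1.57e-14). Against exon and intron peaks it was 1.12 (0.999 to 1.26, adjusted Fisher's exact p = 0.0820) and 1.08 (0.953 to 1.22, adjusted Fisher's exact p = 0.299), neither past the threshold. With q at or under 0.01 as the call, the ratio against exon and intron peaks was 1.21 on P. alba (adjusted Fisher's exact p = 0.00441) and 1.175 on P. tremula (adjusted Fisher's exact p = 0.0226).

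**Figure D3:**
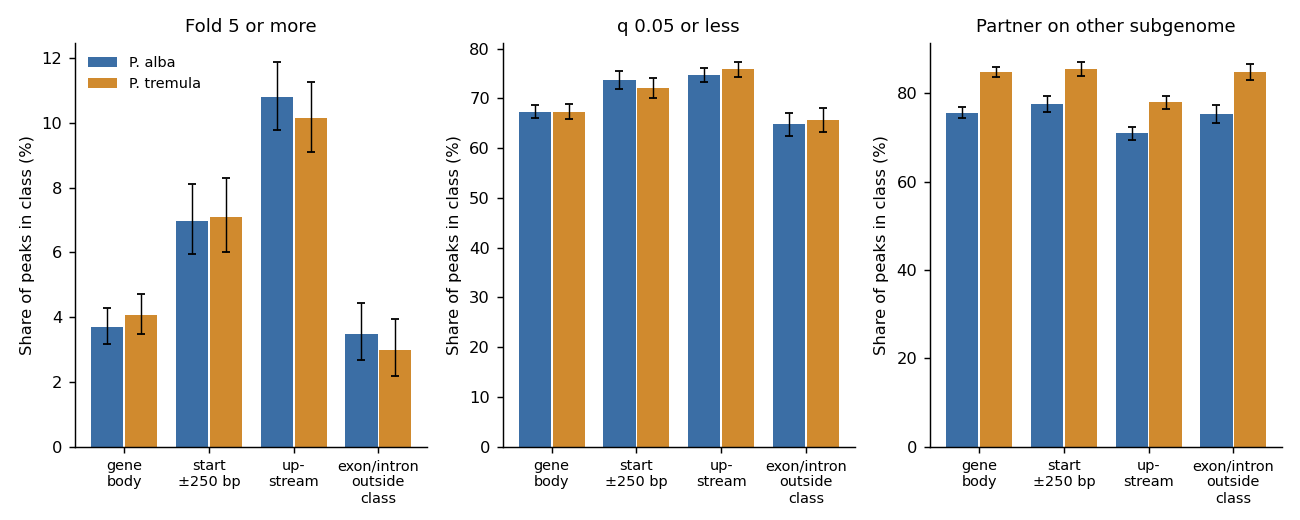
Share of peaks (y axis, percent, from 0) with a fold of 5 or more (left), with a q value of 0.05 or less (middle) and with a partner on the other subgenome (right), in the 4 place classes on the x axis. Bars are the shares in each list and whiskers the exact 95% binomial intervals; gene-body peaks reached a fold of 5 in 3.70% and 4.08%, below start peaks (6.97% and 7.101%) and upstream peaks (10.8% and 10.2%).

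Next to the 250 bp limit, the share at a fold of 5 or more was higher just inside it than just outside it on both subgenomes. That is the opposite order to that of the whole classes, but the counts were small and the intervals overlapped. These values are given as a description with no test. Gene-body peaks with summits from 251 to 300 bp numbered 172 and 155, with a median height of 7 reads on both subgenomes. A fold of 5 or more was found in 9 (5.23%, 2.42 to 9.70%) and 14 (9.03%, 5.03 to 14.7%). Summits from 201 to 250 bp numbered 195 and 162, with median heights of 6 and 6.5 reads. Here a fold of 5 or more was found in 8 (4.10%, 1.79 to 7.92%) and 7 (4.32%, 1.75 to 8.70%). Heights of 500 reads or more went the other way, with 4 and 0 peaks just inside the limit and 6 and 8 just outside it.

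Within gene bodies, the share of strong peaks varied along the gene and was highest at its far end. By distance from the start, the share with a fold of 5 or more was 4.53% on P. alba and 5.47% on P. tremula at 250 to 500 bp. It was lowest at 1500 to 2000 bp, with 2.19% and 2.84%, and stood at 5.23% and 4.81% from 2500 bp on. By distance to the gene end, a grouping chosen after seeing the data, the last 250 bp of the gene held 370 P. alba peaks, of which 38 had a fold of 5 or more (10.3%, 7.37 to 13.8%). On P. tremula they held 344 peaks, of which 35 were as strong (10.2%, 7.19 to 13.9%).

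Farther from the end the share was 133 of 4256 on P. alba (3.12%, 2.62 to 3.69%) and 133 of 3776 on P. tremula (3.52%, 2.96 to 4.16%). The next window, from 250 to 500 bp before the end, had shares of 4.71% and 4.51%. In genes longer than 1000 bp and up to 2500 bp, where gene length varies less, the last 250 bp had 11.1% and 10.8%, the 250 bp before them 4.75% and 4.60%, and the window from 500 to 750 bp 2.41% and 2.85%. Promoter-class summits up to 250 bp past the gene end had shares of 12.6% (28 of 222) and 11.8% (25 of 212), close to those just inside it.

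The background was at its lowest value at 228 of 370 P. alba peaks of the last 250 bp and at 2871 of 4256 elsewhere. On P. tremula the counts were 200 of 344 and 2435 of 3776. At the lowest background alone, 10 of 228 peaks of the last 250 bp had a fold of 5 or more on P. alba (4.39%, 2.12 to 7.92%), against 2.06% (1.57 to 2.64%) elsewhere. On P. tremula these shares were 9 of 200 (4.50%, 2.08 to 8.37%) and 2.38% (1.81 to 3.07%). These shares at the end were above those elsewhere, but below the 10.3% and 10.2% found at the end over all backgrounds. The intervals of end and elsewhere overlapped, with fewer peaks left in each group. Whether the background accounts for the difference was not tested. Without peaks of 500 reads or more, the shares at the gene end were 10.2% and 10.5%, against 3.11% and 3.53% elsewhere. No test was run on the end of the gene, since the pattern was noticed in these same peaks, and the nearness of a neighbouring gene was not tested.

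The share of strong peaks was also higher at short genes, given here as a description without a test. At genes of up to 1000 bp, 6.32% of P. alba and 6.97% of P. tremula gene-body peaks had a fold of 5 or more, and at genes of 1000 to 1500 bp 6.14% and 5.81%. At genes longer than 5000 bp the shares were 3.27% and 3.60%. Every summit of a short gene lies near its end, so gene length and nearness to the end cannot be told apart in the shortest genes.

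**Figure D4:**
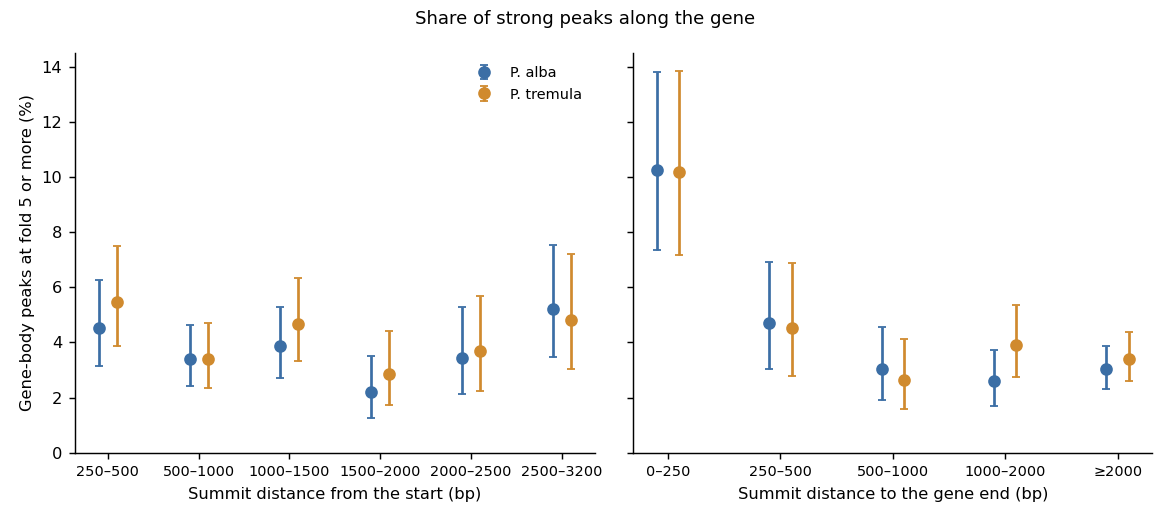
Share of gene-body peaks with a fold of 5 or more (y axis, percent) by summit distance from the gene start (left) and by summit distance to the gene end (right), in bp, for P. alba and P. tremula. Points are shares and whiskers exact 95% binomial intervals; the last 250 bp before the gene end stood at 10.3% and 10.2%, and all other ranges of either plot lay between 2.19% and 5.47%.

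The top of the fold ranking held 1 gene far above the rest. On each subgenome 14 gene-body peaks had a fold of 10 or more, which is 0.303% and 0.340% of them against 0.780% and 0.628% of all peaks. A fold of 20 was passed by 4 peaks on P. alba and 2 on P. tremula. The highest fold of either list belonged to Potri.014G104800. On P. alba its peak at chromosome 14, 8224506 to 8225967, had 1347 reads over a background of 0.989 reads, a fold of 678. On P. tremula the peak at 8222290 to 8223741 had 1299 reads and a fold of 655.

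Both peaks of Potri.014G104800 covered most of the gene, unlike the median gene-body peak. They covered 81.4% of a gene of 1796 bp and 81.3% of one of 1785 bp, with the summits 1308 and 1372 bp past the start. The upstream promoter peaks of this gene were shallow, with 7 reads at -483 bp and 6 reads at -295 bp from the start on P. alba and 6 reads at -292 bp on P. tremula. The height was thus found over the gene and not in its upstream promoter peaks. What the gene encodes is not given in the sources used here.

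Potri.001G206900 came next on both subgenomes, and its peaks also filled most of the gene. The P. alba peak at chromosome 1, 20692259 to 20693130, reached 113 reads with a fold of 40.0, covering 76.8% of 1136 bp. The P. tremula peak at 20693717 to 20694587 reached 111 reads with a fold of 36.5, covering 75.9% of 1148 bp. The summits lay 465 and 473 bp past the start. Such breadth was rare among gene-body peaks, since 37 on P. alba (0.800%) and 32 on P. tremula (0.777%) covered 50% or more of their gene. The like share over all peaks was not computed.

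Some other strong peaks shared their gene with a start peak of like strength. On P. alba, the peak at chromosome 2, 13809522 to 13809600, had 79 reads, a fold of 37.1 and a summit 161 bp before the gene end. The start peak of the same gene, at 13810638 to 13810773, had 82 reads and a fold of 41.7. On P. tremula this gene had a start peak of 39 reads and a fold of 20.2 but no gene-body peak. On chromosome 3, the P. alba peak at 2703587 to 2704113, which covered 43.3% of its gene, had 69 reads and a fold of 22.7, beside a start peak of 61 reads and a fold of 21.8. The P. tremula peak at 2702410 to 2702940 had 74 reads and a fold of 19.9, beside a start peak of 62 reads and a fold of 24.1. In this gene both places were enriched to a like degree on both subgenomes.

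Potri.008G224300 held strong peaks on both subgenomes at different distances. The P. alba peak at chromosome 8, 19100600 to 19100862, lay 524 bp past the start, with 98 reads over a background of 7.16 reads and a fold of 12.1. On P. tremula there were 2 peaks, at 19101521 to 19101898 with 36 reads and a fold of 18.4, and at 19101089 to 19101244 with 32 reads and a fold of 15.3. They lay 417 and 909 bp past the start, farther from the P. alba distance than the 100 bp allowed for a pair.

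The rest of the 10 highest folds ranged from 10.9 to 15.5 on P. alba, with heights of 25 to 65 reads, and from 12.2 to 16.3 on P. tremula, with heights of 40 to 227 reads. Of these 10, genes of up to 2000 bp held 6 on P. alba and 8 on P. tremula, whereas 1128 (24.4%) and 1024 (24.9%) of all gene-body peaks were at genes of that length. A partner on the other subgenome was found for 8 and 7 of them. The shortest gene among them, on chromosome 14, was 508 bp long on both subgenomes, with 36 reads and a fold of 15.5 on P. alba at 5266479 to 5266598 and 40 reads and a fold of 13.4 on P. tremula at 5265590 to 5265737.

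Most of the deepest gene-body peaks were weak in fold. A height of at least 500 reads was held by 66 P. alba (1.43%) and 49 P. tremula (1.19%) gene-body peaks, beside 1.12% and 1.21% of all peaks. Their median background was 327 and 322 reads, their median fold 2.70 and 2.50, and a fold of 5 or more was reached by 4 and 1 of them. The peaks of Potri.014G104800, with 1347 and 1299 reads, were among these 4 and 1. Genes of up to 2000 bp held 44 of the 66 and 33 of the 49. On chromosome 13, 32 of the P. alba deep peaks lay together between 14631405 and 14876452, and 25 of the P. tremula ones between 14629126 and 14873096.

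The highest of all was the P. alba peak at chromosome 5, 8706409 to 8706492, with 3301 reads over a background of 2055 reads and a fold of 1.61. It was followed on P. alba by the peak at chromosome 13, 14764405 to 14765963, with 2773 reads and a fold of 2.98, which spanned its entire gene. Its partner on P. tremula, at 14762150 to 14762420, was the highest there, with 1732 reads and a fold of 4.64. The other 3 of the 5 highest P. alba peaks had 1931 to 2396 reads and folds of 2.45 to 3.66, and the other 4 on P. tremula had 1410 to 1697 reads and folds of 2.04 to 4.16. Great height thus went with great local background at these places, and folds of the size seen at Potri.014G104800 were not found among them.

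Most genes with a gene-body peak had no other promoter-class peak. A start or upstream peak was also assigned to 701 P. alba (16.7%) and 613 P. tremula (16.1%) of these genes. A start peak was found at 313 (7.44%) and 282 (7.40%) of them and an upstream peak at 422 (10.0%) and 360 (9.45%), with some genes in both counts. Of all genes with any peak, 2201 of 13403 (P. alba) and 2001 of 12487 (P. tremula) had a start peak. An upstream peak was assigned to 3139 and 2895 of them. Of the genes with a gene-body peak, 2909 (69.1%) and 2704 (71.0%) had no other kind of peak at all. The like share was not computed for genes with a start or an upstream peak. Seen from the other side, 14.2% and 14.1% of genes with a start peak, and 13.4% and 12.4% of genes with an upstream peak, also had a gene-body peak. Among all genes with any peak, 4207 of 13403 and 3811 of 12487 had one. Genes without any peak are not in the tables, so these shares were not compared with chance.

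Several gene-body peaks in 1 gene were uncommon. Of the genes, 3829 P. alba and 3525 P. tremula genes held 1, and 378 (8.99%) and 286 (7.50%) held several. How frequently genes held several peaks of another class was not computed. Neighbouring summits in a gene lay a median of 700 bp apart on P. alba (quartiles at 381 and 1194 bp) and 712 bp apart on P. tremula (quartiles at 398 and 1248 bp), never closer than 137 and 136 bp. The gene with the most, on chromosome 11 at 11017472 to 11051159 on P. alba, held 5 there and 4 on P. tremula. Its peaks refer to the starts of several transcripts, with 27 to 34 and 27 to 33 reads and folds of 2.02 to 2.95 and 1.93 to 2.73.

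The other genes with the most gene-body peaks held either very deep or shallow ones. On P. alba, the gene at chromosome 13, 14722747 to 14725126, held peaks of 982 to 1810 reads with folds of 2.15 to 2.52. The gene at chromosome 1, 10238538 to 10242583, held peaks of 5 and 6 reads with folds of 3.02 to 3.52, and its P. tremula counterpart at 10240846 to 10244896 also held 4 peaks of 5 and 6 reads. On chromosome 3 of P. alba, the gene at 9141478 to 9147181 held 4 peaks of 5 to 24 reads with folds of 3.02 to 5.35, and that at 9720586 to 9725908 held 4 of 5 to 8 reads with folds of 3.02 to 4.52. On P. tremula the next 3 genes held 3 peaks each, all of great height. The counterpart on chromosome 13, at 14719486 to 14721892, had 1033 to 1597 reads and folds of 2.04 to 2.31. The gene at chromosome 11, 7202021 to 7203829, had 627 to 1220 reads and folds of 3.54 to 3.71, and the gene at chromosome 13, 14795921 to 14800195, had 681 to 924 reads and folds of 2.01 to 2.35. Genes with equal counts were ordered by their summed height, which favours deep peaks among the genes named.

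Most gene-body peaks were called at the same place on both subgenomes. A partner, that is a peak at the same gene identifier with its summit within 100 bp of the same distance from the start, was found for 3498 P. alba (75.6%, 74.4 to 76.8%) and 3496 P. tremula (84.9%, 83.7 to 85.9%) gene-body peaks, beside 66.3% and 73.8% of all peaks. Start peaks had a partner in 77.6% and 85.6%, upstream peaks in 70.9% and 77.9%, and exon and intron peaks outside the class in 75.3% and 84.9%. The odds of a partner were higher than at upstream peaks, with a ratio of 1.27 on P. alba (1.15 to 1.41, adjusted Fisher's exact p = 4.93e-06) and 1.59 on P. tremula (1.41 to 1.79, adjusted Fisher's exact p = 2.29e-13). This difference did not pass the threshold on either subgenome among peaks with q at or under 0.01, where the ratios were 1.13 (adjusted Fisher's exact p = 0.305) and 1.24 (adjusted Fisher's exact p = 0.0559). On P. alba it was also lost among peaks with q at or under 0.05, at 1.11 (adjusted Fisher's exact p = 0.183).

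Against start peaks, the odds ratio of a partner was 0.893 on P. alba (0.792 to 1.01, adjusted Fisher's exact p = 0.0898) and 0.942 on P. tremula (0.811 to 1.10, adjusted Fisher's exact p = 0.536). Against exon and intron peaks outside the class it was 1.02 (0.894 to 1.15, adjusted Fisher's exact p = 0.869) and 0.998 (0.849 to 1.17, adjusted Fisher's exact p = 1). Neither comparison passed the threshold at the pairing distance of 100 bp. With pairing within 50 bp, the ratio against exon and intron peaks was above 1 and passed it on both subgenomes. The ratio against start peaks then passed it on P. alba. Pairing rests on distance from a start, and insertions between start and summit part a pair, so shares can differ between places for that reason to an extent not measured here.

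Paired peaks were close to identical. In 3462 pairs both peaks were gene-body peaks, and 2917 of these pairs (84.3%) had exactly the same height on both subgenomes. The distances from the start differed by no more than 10 bp in 2068 pairs (59.7%). Folds differed by more than 1.5 times in 23 pairs (0.664%), of which 6 were higher on P. alba. Over the pairs the log2 ratio of folds had a standard deviation of 0.12, and Spearman's rho of the folds was 0.862, a description of pairs that come from the same libraries. A fold of 5 or more was reached on both subgenomes by 118 pairs, of 141 on P. alba and 144 on P. tremula. With this likeness, the 2 lists are not independent measurements, and equal results on both do not count as a repeat.

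**Figure D5:**
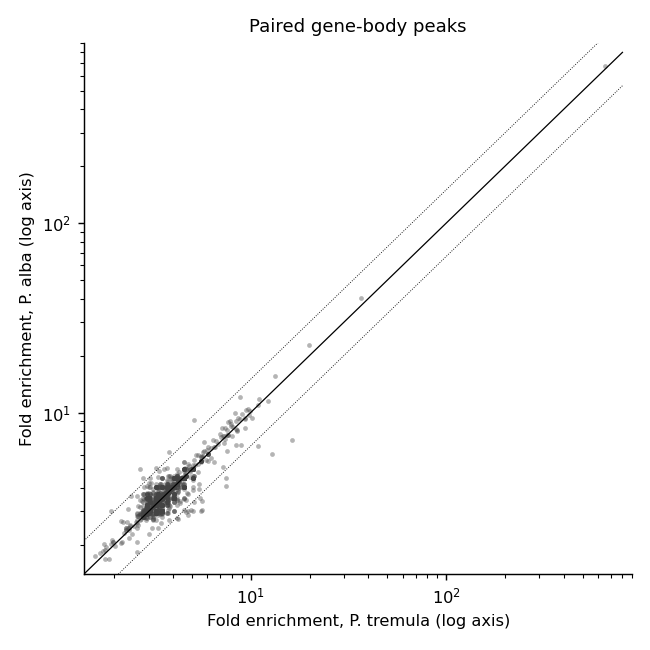
Fold enrichment on P. alba (y axis, log scale) against P. tremula (x axis, log scale) for the 3462 pairs of gene-body peaks, with 1 point per pair, a solid line at equal folds and dotted lines at ratios of 1.5. Only 23 pairs lay outside the dotted lines, and the point at the upper right is Potri.014G104800, with folds of 678 and 655.

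The 3 pairs of the 5 most unequal that had over 100 reads on a subgenome differed in both height and background. At Potri.014G185600 on chromosome 14, the P. alba peak at 16239031 to 16239261 had 295 reads over a background of 40.4 reads and a fold of 7.15. Its P. tremula partner at 16234948 to 16235148 had 221 reads over 12.6 reads and a fold of 16.3, a log2 ratio of P. alba over P. tremula of -1.19. A second pair of the same gene, with 12 reads and a fold of 3.07 on P. alba and 179 reads and a fold of 5.66 on P. tremula, had a log2 ratio of -0.88. On chromosome 12, the P. alba peak at 7075622 to 7075895 had 607 reads over 99.7 reads and a fold of 6.04. Its partner at 7074808 to 7075012 had 227 reads over 16.7 reads and a fold of 12.9, a log2 ratio of -1.09. In the pairs of Potri.014G185600 with 295 reads and of chromosome 12, the P. alba peak was thus the higher in reads and the lower in fold.

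The other 2 of the 5 most unequal pairs were shallow. The pair on chromosome 9 at 9593900 to 9594028 had 9 reads and a fold of 5.03 on P. alba against 8 reads and a fold of 2.73 on P. tremula. The pair at 31584 to 31671 on scaffold 67 had 5 reads and a fold of 3.02 on P. alba against 10 reads and a fold of 5.54 on P. tremula. In the chromosome 9 pair the folds thus differed with nearly equal heights, and in the scaffold pair the heights differed by 5 reads.

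Gene-body peaks without a partner less frequently passed the q threshold, a difference that was not tested. On P. alba 1128 and on P. tremula 624 had none. Of these, 57.6% and 62.7% had a q value of 0.05 or less, against 70.5% and 68.2% of those with a partner. A fold of 5 or more was held by 2.48% and 3.37% of them, against 4.09% and 4.20%. For 528 (46.8%) and 338 (54.2%) of the peaks without a partner, the same gene had a peak elsewhere in the other list, and for 277 (24.6%) and 182 (29.2%) that gene had a gene-body peak there. By gene, 3346 identifiers had a gene-body peak in both lists, which is 79.5% of the P. alba and 87.8% of the P. tremula genes with one. The like share over all genes with any peak was not computed, so these shares are not read as particular to gene-body peaks.

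Gene-body peaks were found on all 19 chromosomes. Their share of all peaks was lowest on chromosome 19, at 20.5% and 21.0%, and highest on chromosome 9, at 29.5% and 28.9%. Over all chromosomes it was 25.1% and 24.97%. On unplaced scaffolds it was 80 of 892 P. alba peaks (8.97%) and 70 of 822 P. tremula peaks (8.52%). The number of genes on each sequence is not in the tables, so these shares were not set against gene density.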

How the data were processed

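ChIP-seq peak tables of 1 hybrid poplar were analysed, with positions counted from 1 on the sequence of the named subgenome. The submitters' processing notes list the tools ChIPseeker 1.18.0, MACS2 2.2.7.1 and BWA 0.7.17.2. Genome build, annotation release, caller options, use of the input libraries and pooling: not given in the sources used here. The deposited values used, per the file headers, are a pileup (the coverage signal at each summit), a ratio of fold enrichment, and −log10 q values from the authors' peak caller. Each peak stood in 2 of the 37950 P. alba and 34080 P. tremula rows and was counted once. Library depth is unknown, because no read totals are in the tables.

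Background was computed as (pileup + 1) / fold − 1. Peaks of the 2 lists were paired by gene identifier and distance from the start within 100 bp, closest first, each peak used once. Fisher's exact tests (Python 3.11.15, scipy 1.17.1) compared gene-body peaks with 3 other classes for 3 measures in each list, and p-values were adjusted by Benjamini-Hochberg over all 18. Odds ratio intervals are normal approximations. Pairing was checked on the P. alba list with its distances shifted at random by less than the pairing limit. Fisher's test was checked on simulated independent counts. Neither check covers dependence between peaks.

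The peak set, gene groupings and tests were chosen with earlier results of these data known. Peaks named are, per list, the 10 highest folds, the 5 highest pileups, the 5 pairs of largest fold ratio and the 5 genes with the most gene-body peaks, described singly or by their range. The start and upstream peaks of those genes, and the other peaks at their sides, were added. Identifiers are printed for 4 genes only, because no table pairs them with names. For the same reason the planned gene lists were not used, and without a genome sequence the planned motif search was not run and no sequence is shown.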

Additional observations from a re-analysis of the deposited data

How the results depend on the processing

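The comparisons were repeated with 1 choice changed at a time, which gave 262 alternative values. In every alternative run, the lower odds of a fold of 5 or more and of a q value of 0.05 or less in gene bodies than at start and upstream peaks kept direction and call: the fold ratios ranged from 0.489 to 0.710 (P. alba) and 0.519 to 0.727 (P. tremula) against start peaks, and from 0.258 to 0.634 and 0.322 to 0.633 against upstream peaks. Of all values, 201 kept their direction and their side of the threshold or stayed within the interval or count limit, and the rest follow, with the cause not tested unless stated. No paired analysis was possible because each deposited value belongs to a peak and not to a library, which also meant that replicates could not be left out. Depth limits single peaks: at 6 reads, 1 read moves the fold visibly.

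With only peaks of q at or under 0.05, the share at fold 5 was 5.49% and 6.05% (P. alba first, here and below) and the share with a partner 72.5% and 81.4%. The partner odds ratio was 1.11 against upstream peaks (P. alba, call lost), 0.789 against start peaks (P. tremula, now called, adjusted Fisher's exact p = 0.0218), and 0.963 and 1.01 against exon and intron peaks (direction turned, no call). With q at or under 0.01, 1405 and 1257 gene-body peaks were left, the share at fold 5 was 12.2% and 13.4%, and the share with a partner 70.0% and 78.0%. The partner ratio against upstream peaks was 1.13 and 1.24 (calls lost), and against exon and intron peaks on P. alba the fold ratio was 0.921 and the partner ratio 0.843 (both turned, no call). With peaks at or above the median fold, 2676 and 2367 were left, 100% had a q of 0.05 or less on both, and 73.1% and 82.8% a partner. The partner ratio was then 1.13 against upstream peaks (P. alba, call lost), 0.978 against exon and intron peaks (P. alba, turned) and 0.770 against start peaks (P. tremula, now called, adjusted Fisher's exact p = 0.0235).

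With only genes at least 250 bp longer than the 3 kb reach, 2204 and 1924 were left, with shares at fold 5 of 3.09% and 3.38%, at q 0.05 of 64.8% and 65.0%, and with a partner of 87.9% on P. tremula. Against exon and intron peaks the fold ratio turned to 0.889 (P. alba), the q ratio to 0.983 and the partner ratio to 1.32 (P. tremula, adjusted Fisher's exact p = 0.0173), and the partner ratio against upstream peaks was 1.13 (P. alba, call lost). With the inner limit at 100 bp, the q ratio against exon and intron peaks was 1.15 and the partner ratio against start peaks 0.831 (P. alba), and the fold ratio against exon and intron peaks 1.59 (P. tremula), all now called. At 500 bp, the P. tremula partner ratio turned to 1.01 against start and 1.07 against exon and intron peaks, without a call.

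A fold of 4 or more as the call gave 24.4% and 24.6%, and a q of 0.01 gave 30.4% and 30.5%, with ratios against exon and intron peaks of 1.21 and 1.175 (now called). Pairing within 50 bp gave 70.8% and 79.5% with a partner, with partner ratios on P. alba of 0.878 against start peaks (adjusted Fisher's exact p = 0.0358) and against exon and intron peaks of 1.22 (now called) and 1.31 (P. tremula, turned and called). Pairing within 200 bp gave 77.2% and 86.7%, with a ratio against exon and intron peaks of 0.992 (P. alba, turned). The partner ratio against exon and intron peaks also crossed 1, without a call, with the 19 chromosomes only (0.997, P. alba), without peaks of 500 reads or more (1.01, P. tremula) and without the chromosome 13 cluster (1.01, P. tremula). With 1 peak per gene and class, 68.7% of P. alba peaks had a q of 0.05 or less. Those last 2 alternatives were chosen after seeing the data.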
